A study of Mus musculus with 16 samples.

Results

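Loss of TRIM28 was compared with its presence across mouse plantaris muscle whatever the load, in a model that held genotype and surgery as additive factors with no interaction term. The plantaris is an ankle plantar flexor of the hindlimb. The comparison took every sequenced library whose label gives one of the genotypes, which came to 7 TRIM28 mKO (KO) libraries against 8 Wild Type (WT) libraries, or 15 of the 16 samples in the labels, 4 labelled per group. The groups were WT after a sham operation (WT Sham, n = 4), KO after a sham operation (KO Sham, n = 3), WT after myotenectomy (WT MTE, n = 4) and KO after myotenectomy (KO MTE, n = 4). Myotenectomy removes part of a synergist muscle and its tendon, so that the plantaris carries extra load. All mice were between 9 and 12 weeks old, and no agent or allele beyond the Trim28 knockout is named in the labels. Which exons the knockout removes, what drives the deletion, in which cells it acts, and what the m of mKO stands for are not stated in the material used here. Nothing in the labels ties each library to a mouse of its own, and p-values therefore measure the spread between samples, which may be technical.

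TRIM28, also called KAP1, is a corepressor with no DNA binding domain of its own. Zinc finger proteins with a KRAB domain bring it to their target sequences, where it recruits a histone methyltransferase and heterochromatin proteins that silence retroelements, some imprinted loci and parts of the zinc finger gene clusters themselves. Skeletal muscle consists of long multinucleated fibres, so whole-muscle RNA mixes fibre nuclei with those of immune, vascular, nerve and connective tissue cells. In such bulk RNA, fewer cells of a type and less RNA per cell cannot be told apart.

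Expected counts per gene were tested with edgeR's quasi-likelihood model over 17212 genes, and calls were made where the p adjusted by Benjamini and Hochberg was under 0.05. Levels are CPM, counts per M (mega) of library counts after TMM scaling, which are not corrected for gene length and are compared here only between libraries. Total counts per library lay between 21.1 M and 69.2 M. The 12 skeletal muscle markers summed to 109040 CPM or more in every library, and no marker was at 0 throughout. WT Sham 1 stood apart in its summed macrophage markers, 4074 CPM, where the rest of its group held 344 to 465. KO Sham column 3 stood apart in its share of mitochondrially encoded counts, 20.5%, the highest of the 15 libraries. Results were therefore also computed without both libraries.

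Of the genes tested, 426 were called higher in KO (2.48%) and 198 lower (1.15%), 624 together (3.63%). Of these, 134 higher and 85 lower genes differed at least 2-fold. The median log2 fold change over all genes was -0.04, over the genes called higher 0.71 and over those called lower -0.83. In 222 of the genes called higher, every KO library lay above every WT library of the same surgery in both surgeries, and in 84 of those called lower every KO library lay below. Over all genes tested, whether called or not, the groups were separated in this way for 267 genes upward (1.55%) and 108 downward (0.627%). With WT Sham 1 and KO Sham column 3 left out, the counts rose to 784 higher and 491 lower, and 599 of the 624 calls were kept. With any 1 library left out, the counts ranged from 261 to 540 higher and from 111 to 310 lower. Leaving out KO MTE 2 gave the lowest of both counts, leaving out KO Sham column 3 the highest upward count and leaving out WT Sham 1 the highest downward count. Without WT MTE 3 the counts were 263 and 115, and without KO Sham column 2 or KO MTE 4 the downward count was 121 or 117. A set of 315 calls was kept in every such omission.

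The pooled effect had the same sign in both surgeries for 622 of the 624 called genes. The exceptions were Oas1e, an oligoadenylate synthetase gene named because the count was 2, and Nppb, which had no count in any Sham library. In fits of the 4 group means, the Sham contrast by itself called 57 genes higher (0.331%) and 31 lower (0.18%), and the MTE contrast 209 higher (1.21%) and 44 lower (0.256%). Of the 624 genes, 48 were called in both surgeries, 36 in Sham but not in MTE, 154 in MTE but not in Sham and 386 in neither contrast alone. The absolute log2 fold change was larger in Sham for 289 genes and larger in MTE for 335. No gene was called for the difference between the surgeries (0%), the genotype by surgery interaction of edgeR, with 605 genes at an unadjusted p under 0.05. Among the 624 called genes, 67 had an unadjusted interaction p under 0.05 in edgeR, a larger share than the 605 of all 17212 genes. The additive effect is therefore an average over surgeries, and its size may differ between them for some called genes. The additive and within-surgery tests share their libraries, so the within-surgery values describe where the pooled effect lay and are not separate support. Conversely, 4 genes called in Sham and 51 called in MTE were not called in the additive fit.

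**Figure D1:**
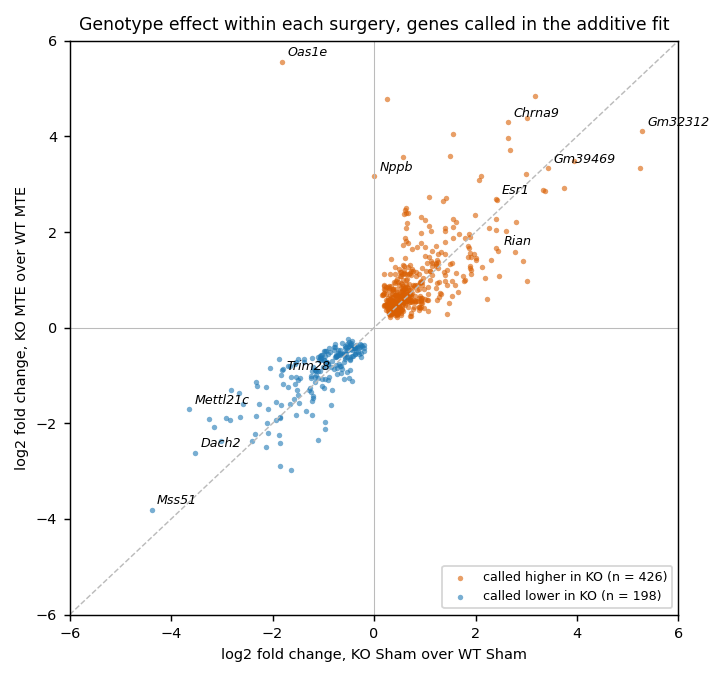
Log2 fold change of KO over WT within Sham (horizontal axis) and within MTE (vertical axis) for the 624 genes called in the additive fit, 426 higher in orange and 198 lower in blue, with the dashed line marking equal effects. Points fill the upper right and the lower left, with Oas1e to the left of the vertical zero line and Nppb on it.

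The targeted gene was lower in every KO library than in every WT library of its surgery. Trim28 (ENSMUSG00000005566, chr7:12999114-13031035 of GRCm38, plus strand) measured 49.0, 27.8, 36.1 and 30.1 CPM in WT Sham 1 to 4, whereas KO Sham columns 1 to 3 measured 12.7, 11.6 and 5.39 CPM. Overloaded WT muscle measured 60.9, 51.9, 47.3 and 35.3 CPM, and overloaded KO muscle 30.3, 25.2, 18.0 and 24.8 CPM. KO Sham held the lowest values and KO MTE 1 came closest to the WT range. Pooled over surgeries, Trim28 was 2.59-fold lower (log2 fold change -1.37, SE 0.22, edgeR adjusted p = 0.0025). Permuting genotype within each surgery in an exact test, two-sided and on log2 CPM, gave p = 0.000408, the smallest that its 2450 arrangements allow. The log2 fold change was -1.84 in Sham and -0.99 in MTE, with an unadjusted interaction p of 0.0443 and an adjusted p of 0.989. The partners that act with TRIM28 showed no call: of 29 tested genes for heterochromatin proteins, histone and DNA methyltransferases and related corepressors, 0 were higher and 0 lower, with a median log2 fold change of 0.04. Over all genes 3.63% were called, so a list of 29 with 0 calls is near that share. With edgeR, Setdb1, the methyltransferase that TRIM28 recruits, had a log2 fold change of 0.11 (adjusted p = 0.54), the heterochromatin protein gene Cbx5 0.20 (adjusted p = 0.36) and the imprinting regulator Zfp57 -0.10 (adjusted p = 0.83). Missing the threshold does not show that their levels were equal. Without WT Sham 1 and KO Sham column 3, 1 of the 29 was higher.

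**Figure D2:**
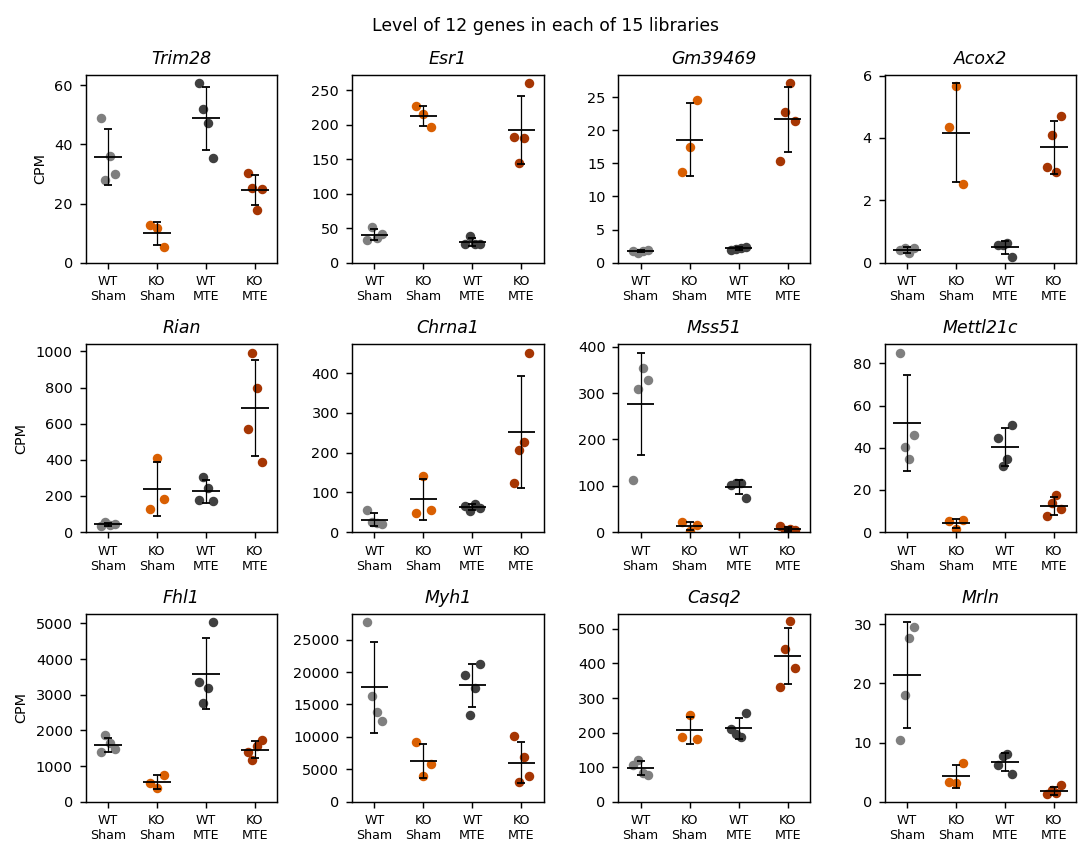
Level in CPM (vertical axes from 0, scales differ) of 12 genes in the 15 libraries, grouped by genotype and surgery, each point 1 library and each bar the group mean ± SD. For Trim28, Esr1, Gm39469, Acox2, Mss51, Mettl21c, Fhl1, Myh1, Casq2, Mrln and Rian no KO library overlaps the WT libraries of its surgery, whereas for Chrna1 KO Sham column 1 lies below WT Sham 1.

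The largest run of neighbouring genes that rose, 12 called among 42 tested, lay on chromosome 10. Between Zfp781 and Gm4924 (chr10:81901911-82422882, GRCm38), 9 of 9 tested genes were called higher, with log2 fold changes of 0.82 to 1.996. These edges were set after the values were seen and begin and end at a called gene, so the share inside them is a description. Within 2 Mb to either side, 12 of 111 tested genes were called higher and 0 lower. The genes are zinc finger genes with predicted genes among them, and their sequences are alike enough that reads could be assigned to the wrong copy. Zfp781 and Gm3055, which lies outside these edges, have identical promoter sequences in the RefSeq table used here. They are therefore not independent entries in the promoter search below. Whether reads are shared between these genes was not tested. Promoters of 4 genes of this group are shown because they resembled one another more than they resembled the promoter of Gm4924, which is also of this group, or those of Esr1, Mss51 and Meg3. They are RefSeq sequences of GRCm38.p6, 250 bases before to 50 bases after the start, and capitals mark a run of 13 letters that 3 of the 4 hold in full.
Zfp781, chr10:81930463-81930762, minus strand: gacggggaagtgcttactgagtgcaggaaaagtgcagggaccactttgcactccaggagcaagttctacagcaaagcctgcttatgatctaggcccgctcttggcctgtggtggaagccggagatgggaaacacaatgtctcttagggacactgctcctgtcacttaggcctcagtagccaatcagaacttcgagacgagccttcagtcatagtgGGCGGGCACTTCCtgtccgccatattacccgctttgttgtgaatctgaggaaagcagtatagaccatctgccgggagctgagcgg
Zfp873, chr10:82047873-82048172, plus strand: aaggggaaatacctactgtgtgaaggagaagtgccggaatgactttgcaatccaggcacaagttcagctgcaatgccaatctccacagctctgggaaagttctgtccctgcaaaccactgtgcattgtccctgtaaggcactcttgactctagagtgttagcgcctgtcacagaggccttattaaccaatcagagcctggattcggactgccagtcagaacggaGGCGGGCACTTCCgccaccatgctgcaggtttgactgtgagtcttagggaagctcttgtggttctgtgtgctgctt
AU041133, chr10:82127763-82128062, plus strand: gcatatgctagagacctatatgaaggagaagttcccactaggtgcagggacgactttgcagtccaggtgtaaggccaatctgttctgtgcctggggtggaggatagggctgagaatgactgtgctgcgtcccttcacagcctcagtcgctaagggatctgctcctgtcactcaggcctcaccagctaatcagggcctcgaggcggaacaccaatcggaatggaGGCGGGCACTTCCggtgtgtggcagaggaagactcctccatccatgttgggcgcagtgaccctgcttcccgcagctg
Zfp938, chr10:82241231-82241530, minus strand: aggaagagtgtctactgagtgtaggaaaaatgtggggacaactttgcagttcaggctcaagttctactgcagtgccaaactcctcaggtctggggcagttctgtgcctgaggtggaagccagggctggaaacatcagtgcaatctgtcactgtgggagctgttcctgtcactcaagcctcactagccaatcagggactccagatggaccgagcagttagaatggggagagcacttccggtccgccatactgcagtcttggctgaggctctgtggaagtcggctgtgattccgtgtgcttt

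Among the promoters of Zfp781, Zfp873, BC024063, AU041133 and Zfp938, identity in pairs ran from 52.9% to 89.4% (median 60.1%, 10 pairs). In 26 pairs where at least 1 member was the promoter of Gm4924, Esr1, Mss51 or Meg3, it ran from 40.8% to 47.6%. The shared letters GGCGGGCACTTCC were found by comparing these promoters and were then searched on both strands of all promoters. They occurred in 9 of 27025 promoters (0.0333%) and in 8 of the 11674 whose gene was tested. Of those 8 genes, the 5 called higher were Zfp781, Zfp873, BC024063, AU041133 and Gm3055, all from this stretch of chromosome 10. The other genes holding the letters were Golm1 (log2 fold change -0.20), Kctd10 (-0.32) and Ube3b (0.03), none of which was called. Since the letters were chosen from called genes, this count supports nothing on its own.

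Zfp873, with the smallest p of the group, measured 2.39, 2.03, 1.97 and 1.29 CPM in WT Sham 1 to 4, against 6.90, 7.64 and 7.29 CPM for KO Sham columns 1 to 3. After overload, WT measured 1.57, 2.18, 2.13 and 1.41 CPM and KO 4.34, 5.38, 5.68 and 5.03 CPM. No KO library overlapped WT in either surgery, and the KO Sham columns lay above all KO MTE libraries. Zfp873 was 3.21-fold higher in KO (log2 fold change 1.68, SE 0.16, edgeR adjusted p = 2.63e-05). AU041133, a neighbouring protein-coding gene, was at 1.73, 2.13, 1.26 and 2.26 CPM in WT Sham and at 8.50, 8.45 and 12.4 CPM in KO Sham. Its WT MTE libraries held 1.71, 3.62, 3.13 and 2.06 CPM and its KO MTE libraries 5.62, 8.06, 10.3 and 9.31 CPM. All 7 KO values were above all 8 WT values, and the gene was 3.99-fold higher (log2 fold change 1.996, SE 0.22, edgeR adjusted p = 0.000129). BC024063 (log2 fold change 1.67) and Zfp938 (1.08) were separated in the same way, and Zfp781 (1.48) within each surgery. The weakest of the 9 was Gm4924, where the log2 fold change was 1.44 in Sham and 0.29 in MTE and the groups overlapped after overload. Its pooled call (edgeR adjusted p = 0.0482) was kept only when WT MTE 4, KO MTE 1 or KO MTE 4 was the library left out, and its adjusted p otherwise reached 0.0932.

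**Figure D3:**
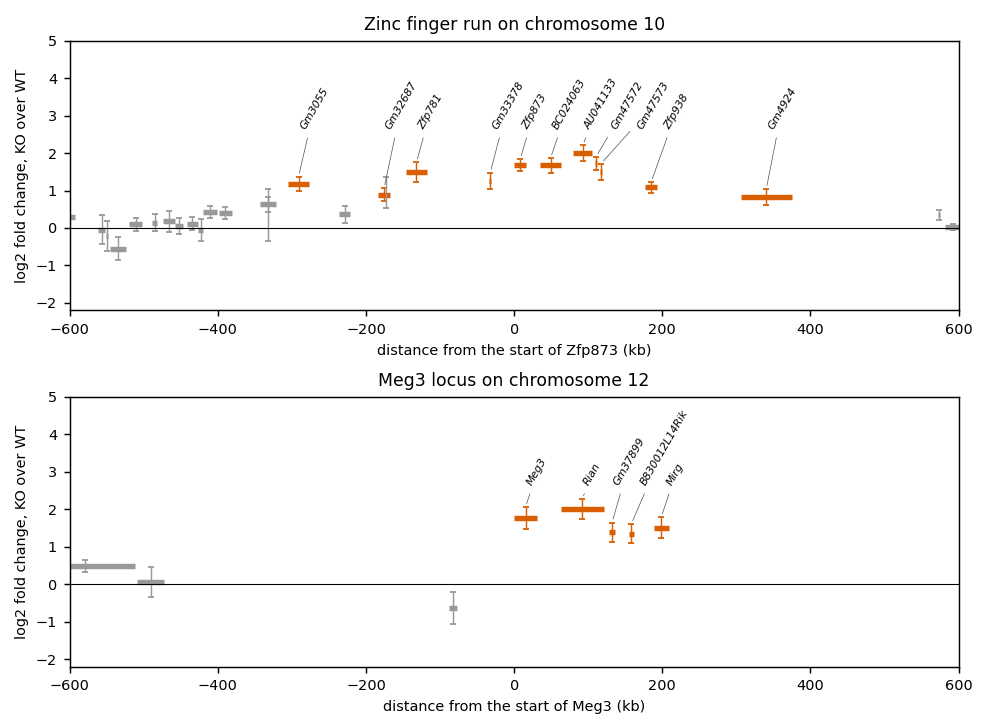
Log2 fold change of KO over WT in the additive fit (vertical axis, error bars ± SE) by distance in kb from the start of Zfp873 (upper panel) and of Meg3 (lower panel), each horizontal bar spanning 1 tested gene, orange where called higher and grey where not called. The called zinc finger genes of chromosome 10 form a block with values of 0.82 to 1.996, and from Meg3 to Mirg all 5 tested genes are called, beside Dlk1 at -0.64.

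Zinc finger genes elsewhere were also among those that rose, though most were not called. Of 337 tested genes with a numbered Zfp symbol, 17 were higher and 0 lower, 5.04% against 2.48% of all genes, with a median log2 fold change of 0.08. Over the 337, whether called or not, KO lay above WT in both surgeries for 17 genes, where 1.55% of all genes did. These are not all the 17 called, since Zfp808 was called and overlapped WT in MTE. Besides the called genes on chromosome 10, Zfp934 on chromosome 13 (log2 fold change 1.57, SE 0.19, edgeR adjusted p = 0.000227) and Zfp97 on chromosome 17 (1.17, SE 0.18, adjusted p = 0.00197) had the smallest p. Zfp934 was at 1.99 to 3.61 CPM in WT Sham and at 10.2, 9.79 and 11.8 CPM in KO Sham, and at 1.80 to 3.20 CPM in WT MTE against 5.199, 5.70, 8.52 and 6.34 CPM in KO MTE. The smallest increase among the 17 called was that of Zfp706 (log2 fold change 0.35, edgeR adjusted p = 0.00709). Without WT Sham 1 and KO Sham column 3, 16 of the list were higher and 3 lower.

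Called genes formed 34 runs of at least 3 genes called in one direction with gaps of at most 1 Mb, 33 upward and 1 downward. Those runs held 135 of the higher and 5 of the lower genes, and how many runs chance gives was not computed. By share of tested genes called, the fullest was the imprinted Meg3 locus, with 5 of 5. On chromosome 13, Zfp808, Gm3604, Zfp934, Gm7664 and Gm5141 formed a run of 5 called among 14 tested genes (chr13:62129886-62785808), in which the Zfp934 call alone was kept in every omission of 1 library. On chromosome 17, Zfp960 and Zfp97 stood beside Riok2, a kinase of small ribosomal subunit maturation, with 3 of 7 tested genes called. Riok2 was at 23.0 to 29.3 CPM in WT Sham and at 66.2, 52.3 and 57.9 CPM in KO Sham, and at 23.8 to 33.9 CPM in WT MTE against 59.98, 66.3, 90.3 and 83.9 CPM in KO MTE. It was 2.38-fold higher with no overlap (log2 fold change 1.25, SE 0.11, edgeR adjusted p = 1.81e-05). On chromosome 7, Zscan18, Zfp329 and Zfp110 were 3 of 5 tested genes, and Vmn2r57, Gm20449 and Zfp788 another 3 of 5. On chromosome 9 the noncoding gene Gm39469 lay beside 2010315B03Rik, both called higher.

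At the Meg3 locus of chromosome 12, noncoding genes that are expressed from the maternal chromosome rose together. From Meg3 to Mirg (chr12:109541001-109749460, GRCm38), 5 of 5 tested genes were called higher: Meg3 (log2 fold change 1.77), Rian (1.999), Gm37899 (1.38), B830012L14Rik (1.35) and Mirg (1.51). These transcripts lie on one strand close to one another, and Rian and Mirg carry clusters of small RNAs. Dlk1, the protein-coding neighbour expressed from the paternal chromosome and named here after its value was seen, had a log2 fold change of -0.64 (SE 0.42, edgeR adjusted p = 0.44). Its level was at most 0.306 CPM in Sham libraries and at most 1.14 CPM in MTE libraries. The RefSeq promoter of Meg3 is shown with the hexamer TGCCGC, which the zinc finger protein ZFP57 binds when it is methylated. Capitals mark 1 match on the minus strand. The hexamer occurred in 18.3% of all tested promoters, so such a match is common. Binding or methylation at this match was not tested.
Meg3, chr12:109540746-109541045, plus strand: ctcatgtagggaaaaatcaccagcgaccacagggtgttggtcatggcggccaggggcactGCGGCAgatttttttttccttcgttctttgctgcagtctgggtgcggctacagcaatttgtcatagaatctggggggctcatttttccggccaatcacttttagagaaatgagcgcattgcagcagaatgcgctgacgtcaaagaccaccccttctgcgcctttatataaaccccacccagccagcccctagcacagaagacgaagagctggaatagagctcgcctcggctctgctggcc

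Rian measured 36.5, 53.6, 40.4 and 45.1 CPM in WT Sham 1 to 4, against 128, 408 and 183 CPM for KO Sham columns 1 to 3. After overload, WT measured 179, 306, 244 and 174 CPM and KO 569, 993, 796 and 388 CPM. KO exceeded WT within each surgery without overlap, while the WT MTE and KO Sham ranges overlapped. Rian was 3.996-fold higher in KO (log2 fold change 1.999, SE 0.27, edgeR adjusted p = 0.00072), with 2.45 in Sham and 1.61 in MTE. Meg3 was at 20.0, 17.9, 14.6 and 15.6 CPM in WT Sham against 30.1, 123 and 30.3 CPM in KO Sham, and at 64.4, 80.1, 72.7 and 41.6 CPM in WT MTE against 219, 298, 210 and 118 CPM in KO MTE. KO Sham column 2 held the highest Sham value of Meg3, Rian and Mirg, and KO MTE 4 the lowest KO MTE value of each. Meg3 was 3.41-fold higher (log2 fold change 1.77, SE 0.29, edgeR adjusted p = 0.00282).

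Of the 41 imprinted genes tested, 5 were higher (12.2%, against 2.48% of all genes) and 1 lower (2.44%, against 1.15%), with a median log2 fold change of -0.03. Of those higher, 3 came from one locus, Meg3, Rian and Mirg, and the others were Peg10 and Ppp1r9a, which are neighbours on chromosome 6. Peg10, a gene derived from a retrotransposon, was at 3.40, 4.29, 3.48 and 2.88 CPM in WT Sham and at 5.2, 5.87 and 9.13 CPM in KO Sham. It was at 6.79, 10.1, 6.57 and 6.89 CPM in WT MTE and at 14.3, 31.8, 41.2 and 33.0 CPM in KO MTE, with KO above WT in both surgeries. Peg10 was 2.87-fold higher (log2 fold change 1.52, SE 0.25, edgeR adjusted p = 0.0025), and Ppp1r9a, an actin-binding scaffold, had a log2 fold change of 0.69 (adjusted p = 0.0125). Igf2, the fetal growth factor, fell by 0.74 on the log2 scale (edgeR adjusted p = 0.0263), while its neighbour H19 was at 0.71 with an adjusted p of 0.0602, above the threshold. The imprinted genes thus held called members at 3 loci, and 35 of the 41 were not called.

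Outside the gene clusters, the estrogen receptor gene Esr1 had among the smallest p of all genes. Esr1 (ENSMUSG00000019768, chr10:4611593-5005614, plus strand), which encodes a ligand-activated transcription factor, was at 32.4, 51.2, 36.3 and 41.6 CPM in WT Sham and at 226, 215 and 197 CPM in KO Sham. It was at 27.0, 37.9, 27.1 and 27.6 CPM in WT MTE and at 182, 144, 181 and 261 CPM in KO MTE. The lowest KO library was well above the highest WT library, and the difference was 5.87-fold (log2 fold change 2.55, SE 0.14, edgeR adjusted p = 6.45e-08). Of 36 nuclear receptor genes tested, 1 was called higher, Esr1 (2.78%, near the 2.48% of all genes), and 0 lower. The list's median log2 fold change was -0.03. Esr2, the second estrogen receptor, had 1.40 with an adjusted p of 0.103.

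Several genes that WT muscle expressed at low levels were markedly higher in KO. The long noncoding gene Gm39469 (ENSMUSG00000110834, chr9:124270358-124282139, minus strand) was at 1.81, 1.45, 1.80 and 1.85 CPM in WT Sham and at 13.7, 17.5 and 24.6 CPM in KO Sham. It was at 1.92, 2.03, 2.23 and 2.44 CPM in WT MTE and at 15.3, 22.8, 27.2 and 21.4 CPM in KO MTE. The WT libraries scarcely varied and the KO libraries lay clear of them, 10.4-fold higher (log2 fold change 3.37, SE 0.15, edgeR adjusted p = 3.86e-09). Acox2, a peroxisomal oxidase of branched-chain acyl-CoA and bile acid intermediates, was at 0.399, 0.483, 0.294 and 0.470 CPM in WT Sham against 4.34, 5.67 and 2.51 CPM in KO Sham. In MTE it was at 0.570, 0.578, 0.616 and 0.190 CPM in WT against 3.07, 4.09, 2.92 and 4.72 CPM in KO. Acox2 was 8.48-fold higher with no overlap (log2 fold change 3.08, SE 0.25, edgeR adjusted p = 6.07e-06).

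Kcng4 and Chrna9 were also among the largest increases. Kcng4, a modulatory potassium channel subunit, was at 10.9, 6.35, 5.66 and 5.75 CPM in WT Sham against 52.5, 97.7 and 20.6 CPM in KO Sham, and at 2.85, 3.47, 2.51 and 1.29 CPM in WT MTE against 45.0, 24.7, 16.1 and 8.52 CPM in KO MTE. The KO values spread widely but did not overlap WT within a surgery (log2 fold change 3.10, SE 0.38, edgeR adjusted p = 0.000307). Chrna9, a nicotinic receptor subunit best known from inner ear hair cells, had a log2 fold change of 3.50 (SE 0.49, adjusted p = 0.000818), from 0.0214 to 0.399 CPM in WT libraries to 0.929 to 4.77 CPM in KO libraries. Igsf9b, an adhesion protein of inhibitory synapses, had 1.83, and Rab15, a GTPase of endosomal recycling, 1.85. Mfsd4a, a membrane transporter-like protein, had 1.89, Fbxo47, an F-box protein of meiosis, 1.83, and the noncoding gene Gm31659 2.56.

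Smaller changes with very little spread gave some of the smallest p. Suds3, a subunit of the Sin3 histone deacetylase corepressor complex, was at 44.1, 49.9, 49.3 and 50.2 CPM in WT Sham and at 81.9, 85.7 and 78.4 CPM in KO Sham. It was at 40.5, 36.7, 39.3 and 40.6 CPM in WT MTE and at 66.9, 81.0, 69.0 and 72.6 CPM in KO MTE, with all KO libraries above all WT libraries. Suds3 was 1.77-fold higher (log2 fold change 0.83, SE 0.07, edgeR adjusted p = 6.39e-06). Prepl, a serine hydrolase related to prolyl peptidases, was 2.75-fold higher (log2 fold change 1.46, SE 0.12, adjusted p = 6.39e-06), at 15.5 to 35.7 CPM over the WT libraries and 51.9 to 112 CPM over the KO libraries.

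The largest upward value belonged to a gene that overlaps a gene with a downward one. Gm32312 (chr16:27317944-27326641, minus strand) lies inside Ostn (chr16:27307489-27351212, plus strand), which encodes the secreted muscle peptide musclin. Gm32312 was at 0.0798 to 0.294 CPM in the 8 WT libraries, at 8.01, 3.09 and 9.37 CPM in KO Sham and at 2.74, 2.39, 2.19 and 1.98 CPM in KO MTE (log2 fold change 4.70, SE 0.34, edgeR adjusted p = 2.07e-06). Ostn was at 3.01, 8.41, 7.80 and 9.04 CPM in WT Sham against 2.97, 1.16 and 1.59 CPM in KO Sham, and at 2.68, 3.70, 2.66 and 1.64 CPM in WT MTE against 0.501, 0.900, 0.365 and 0.435 CPM in KO MTE. WT Sham 1 lay just above the highest KO Sham value of Ostn, and the fitted log2 fold change was -2.07 (SE 0.30, adjusted p = 0.00102). The strand setting of the authors' counting is not known from the material used here, so the division of reads between the pair is uncertain.

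Among the named genes that fell, Mss51 had the largest change. Mss51 (ENSMUSG00000021815, chr14:20482867-20496901, minus strand), a zinc finger protein of muscle mitochondria, was at 112, 310, 354 and 329 CPM in WT Sham and at 21.5, 3.54 and 14.6 CPM in KO Sham. It was at 101, 106, 107 and 74.6 CPM in WT MTE and at 13.05, 3.62, 6.94 and 4.11 CPM in KO MTE. KO libraries were low in both surgeries, although WT itself differed between surgeries, and Mss51 was 16.8-fold lower (log2 fold change -4.07, SE 0.42, edgeR adjusted p = 8.37e-05). Mettl21c, a protein lysine methyltransferase of muscle, was at 85.0, 40.4, 34.7 and 46.3 CPM in WT Sham against 5.13, 1.59 and 5.82 CPM in KO Sham. It was at 44.5, 31.5, 34.9 and 51.0 CPM in WT MTE against 7.70, 13.8, 17.4 and 10.7 CPM in KO MTE, with no overlap. Mettl21c fell by 2.54 on the log2 scale (SE 0.40, adjusted p = 0.00228), and its relative Mettl21e on the same chromosome fell by 2.66 (SE 0.36, adjusted p = 0.000699).

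Mettl21c had 1 of the larger differences between surgeries among these genes, -3.64 in Sham and -1.70 in MTE on the log2 scale, with an unadjusted interaction p of 0.0033 and an adjusted p of 0.989. Flrt1, a leucine-rich repeat membrane protein, fell by 2.56 on the log2 scale (SE 0.35, edgeR adjusted p = 0.000835), from 26.6 to 56.5 CPM in WT Sham to 3.68 to 6.10 CPM in KO Sham. In MTE it ranged from 5.56 to 22.8 CPM in WT and from 1.77 to 5.32 CPM in KO. The tetraspanin gene Tspan8 had a log2 fold change of -2.15, Asb15, an ankyrin repeat and SOCS box protein of muscle, -1.88, and Mustn1, a small nuclear protein of muscle and cartilage, -1.93. Mustn1 stood at 41.4 to 122 CPM in WT Sham against 11.9 to 24.5 CPM in KO Sham, and at 155 to 516 CPM in WT MTE against 46.3 to 150 CPM in KO MTE, again without overlap within a surgery. Noncoding genes lower in KO were Gm4544 (-2.28), Gm28651 (-2.15), AC132130.1 (-1.87) and Gm47898 (-2.32), an antisense gene whose reads are uncertain for the same reason.

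Abundant genes were among those that fell as well. Fhl1, a LIM domain protein of the sarcomere, was at 1389, 1859, 1644 and 1465 CPM in WT Sham and at 521, 384 and 753 CPM in KO Sham. It was at 3358, 2781, 3193 and 5041 CPM in WT MTE and at 1396, 1162, 1562 and 1727 CPM in KO MTE. KO MTE thus overlapped the WT Sham range and lay below every WT MTE library, and the pooled difference was 2.64-fold (log2 fold change -1.40, SE 0.17, edgeR adjusted p = 0.000302). Dmd, which encodes dystrophin, was the 1 of 12 skeletal muscle markers called (0 higher, 1 lower, 8.33% against 1.15% of all genes). It was at 1125, 1624, 1311 and 1240 CPM in WT Sham and at 577, 349 and 1284 CPM in KO Sham. In MTE it was at 891, 698, 930 and 1267 CPM in WT and at 279, 189, 469 and 289 CPM in KO. KO Sham column 3 was within the WT Sham range, and the other KO libraries were below WT (log2 fold change -1.26, SE 0.27, adjusted p = 0.016). Egf, the epidermal growth factor gene, had a log2 fold change of -1.01 (SE 0.12, adjusted p = 0.000307), and the kinase gene Pak1 -1.28 (SE 0.16, adjusted p = 0.00033). Egf stood at 54.8 to 62.5 CPM in WT Sham against 25.7 to 27.9 CPM in KO Sham.

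Of 14 genes of fast fibres, 0 were higher and 3 lower (21.4%), against 1.15% of all genes, with a median of -0.05. Myh1, the fast myosin heavy chain of IIX fibres, was at 27774, 16372, 13839 and 12501 CPM in WT Sham and at 9179, 3902 and 5820 CPM in KO Sham. It was at 19574, 13421, 17613 and 21185 CPM in WT MTE and at 10138, 2977, 6934 and 4035 CPM in KO MTE. All KO libraries lay below all WT libraries, 2.89-fold lower (log2 fold change -1.53, SE 0.28, edgeR adjusted p = 0.00509). The light chain genes Myl1 and Mylpf both had -0.57 (adjusted p = 0.00709 and 0.0292). KO and WT did not overlap for Myl1, and for Mylpf they did not overlap within a surgery. The Mylpf call was lost when WT Sham 3, KO Sham column 1, KO Sham column 2, WT MTE 1, WT MTE 3, KO MTE 2 or KO MTE 4 was left out (adjusted p of up to 0.0616). The other fast myosins were named after their values were seen. Myh4, of IIB fibres, had -0.54 (adjusted p = 0.0803) and Myh2, of IIA fibres, -0.37 (adjusted p = 0.239). Myosin heavy chain genes share sequence, so reads may be split among them. Members of the fast list that act on calcium or the thin filament were not called, among them Tnnc2 (-0.05), Tnnt3 (0.18) and Atp2a1 (-0.06).

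The only downward run of neighbours was the myosin cluster of chromosome 11 (chr11:67078300-67816002), where 5 of 12 tested genes were lower. They were Myh3, the embryonic myosin, Myh1, Dhrs7c, a reductase of the sarcoplasmic reticulum (log2 fold change -1.54), and the noncoding genes 2310065F04Rik (-2.05) and 9430073C21Rik (-1.71). The gene 9430073C21Rik overlaps Myh2 on the opposite strand, so its reads are uncertain. Myh3 was at 50.1, 50.4, 36.1 and 32.1 CPM in WT Sham against 20.8, 9.69 and 9.25 CPM in KO Sham. In MTE it was at 222, 238, 174 and 80.7 CPM in WT against 68.4, 95.2, 89.3 and 158 CPM in KO, so that the groups overlapped after overload. The pooled log2 fold change was -1.19 (SE 0.28, edgeR adjusted p = 0.0293). Its call was lost without KO Sham column 2, WT MTE 1, WT MTE 2, KO MTE 1, KO MTE 2 or KO MTE 3, with an adjusted p of up to 0.0742.

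Of 12 genes of slow fibres, 2 were higher (16.7%, against 2.48% of all genes) and 0 lower, with a median log2 fold change of 0.19. Casq2, the calcium buffer calsequestrin of slow and cardiac muscle, was at 106, 120, 83.8 and 76.2 CPM in WT Sham and at 187, 252 and 182 CPM in KO Sham. It was at 209, 196, 187 and 257 CPM in WT MTE and at 332, 443, 522 and 387 CPM in KO MTE, with no overlap within a surgery. Casq2 was 2.05-fold higher (log2 fold change 1.04, SE 0.13, edgeR adjusted p = 0.000379), by similar amounts in Sham (1.10) and MTE (0.99). Tnnc1, slow troponin C, had 1.498 (SE 0.36, adjusted p = 0.0321) with 0.64 in Sham and 2.19 in MTE, and KO Sham column 3 lay below every WT Sham library at 10.5 CPM. The Tnnc1 call was lost without KO Sham column 2, any 1 WT MTE library or KO MTE 2, KO MTE 3 or KO MTE 4, with an adjusted p of up to 0.0964. The slow myosin gene Myh7 had 0.13 (adjusted p = 0.89) and slow troponin T, Tnnt1, 1.65 (adjusted p = 0.0858). Without WT Sham 1 and KO Sham column 3, 5 slow genes were higher and 1 lower, and 1 fast gene was higher and 3 lower.

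Of 20 calcium handling genes, 2 were higher (10%, against 2.48% of all genes) and 1 lower (5%, against 1.15%), with a median of -0.06. Mrln, which encodes myoregulin, a peptide inhibitor of the sarcoplasmic calcium pump in fast muscle, was at 10.4, 18.0, 27.7 and 29.6 CPM in WT Sham against 3.27, 3.11 and 6.55 CPM in KO Sham. In MTE it was at 6.27, 7.72, 8.04 and 4.76 CPM in WT against 1.32, 1.95, 1.44 and 2.81 CPM in KO. The groups did not overlap within a surgery, and Mrln was 4.19-fold lower (log2 fold change -2.07, SE 0.27, edgeR adjusted p = 0.00043). Sln, which encodes sarcolipin, another peptide inhibitor of that pump, was at 43.3, 7.93, 4.82 and 9.57 CPM in WT Sham against 33.2, 73.9 and 75.8 CPM in KO Sham, and at 43.6 to 67.2 CPM in WT MTE against 87.5 to 259 CPM in KO MTE. WT Sham 1 overlapped KO Sham for Sln, and the pooled log2 fold change was 1.71 (SE 0.40, adjusted p = 0.0275). That call was lost without WT Sham 4, KO Sham column 2, WT MTE 1, WT MTE 2, WT MTE 3, KO MTE 3 or KO MTE 4, with an adjusted p of up to 0.0673. Hrc, a calcium-binding protein of the reticulum, had 0.38 (adjusted p = 0.034), a call kept only without WT Sham 2, WT Sham 3, KO Sham column 1 or KO Sham column 3, with an adjusted p of up to 0.0863 otherwise.

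Genes of the neuromuscular junction, the synapse through which the motor nerve drives the fibre, contained 4 called higher (16%, against 2.48% of all genes) and 1 lower (4%, against 1.15%) of 25, with a median log2 fold change of 0.35. That median was 0.07 in Sham and 0.49 in MTE. The higher genes were Chrna1, Lrp4, Musk and Chrnd, none of them called in the Sham contrast (edgeR adjusted p of 0.158 or more). In the MTE contrast Chrna1, Musk and Chrnd were called and Lrp4 was not. Chrna1, the ligand-binding subunit of the muscle acetylcholine receptor, was at 55.0, 25.7, 22.8 and 20.96 CPM in WT Sham and at 48.5, 141 and 56.6 CPM in KO Sham. It was at 65.2, 53.6, 70.6 and 59.5 CPM in WT MTE and at 124, 206, 226 and 451 CPM in KO MTE. WT Sham 1 reached the KO Sham range, KO MTE did not overlap WT MTE, and KO MTE 4 was the highest library. Chrna1 was 3.33-fold higher (log2 fold change 1.74, SE 0.31, edgeR adjusted p = 0.00545). Lrp4, the agrin receptor, was 1.64-fold higher (log2 fold change 0.72, SE 0.13, edgeR adjusted p = 0.00575), with almost equal values in Sham (0.72) and MTE (0.71). Its levels overlapped in Sham, with KO Sham column 3 at 22.7 CPM and WT Sham 4 at 25.5 CPM, and not in MTE. Musk, the kinase that Lrp4 activates, was at 33.4, 44.9 and 28.7 CPM in KO Sham against 22.3 to 30.1 CPM in WT Sham, and at 43.2, 50.8, 65.1 and 96.0 CPM in KO MTE against 22.0 to 33.0 CPM in WT MTE. The Musk values overlapped in Sham and not in MTE (log2 fold change 0.89, SE 0.19, adjusted p = 0.0165).

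Chrnd, the delta receptor subunit, differed widely between the KO MTE libraries. It was at 3.43, 4.96 and 3.55 CPM in KO Sham against 1.97 to 3.48 CPM in WT Sham, and at 7.66, 15.7, 23.2 and 60.7 CPM in KO MTE against 3.08 to 6.76 CPM in WT MTE. The pooled log2 fold change was 1.66 (SE 0.44, edgeR adjusted p = 0.0496), with 0.61 in Sham and 2.46 in MTE. Its call was kept without WT Sham 1, WT Sham 2, KO Sham column 1, KO Sham column 3, KO MTE 1 or KO MTE 4 and lost in the other 9 omissions, with an adjusted p of up to 0.118. The fetal gamma subunit gene Chrng and the transcription factor gene Myog, both named after their values were seen, were not called. Chrng was at 0.155 to 0.278 CPM in KO Sham, below all WT Sham libraries at 0.294 to 1.30 CPM, and at 4.01, 13.6, 12.4 and 64.8 CPM in KO MTE, above WT MTE at 0.685 to 3.66 CPM. Its log2 fold change was -1.48 in Sham, 3.23 in MTE and 1.76 in the pooled fit (SE 0.93, adjusted p = 0.321), the last of which became 0.75 without KO MTE 4. Myog had 1.01 (SE 0.28, adjusted p = 0.0589), with KO MTE 4 at 86.8 CPM against 23.6 to 34.2 CPM in the other KO MTE libraries. KO MTE 4 was thus the highest library for Chrna1, Chrnd, Chrng, Musk and Myog. The adult epsilon subunit gene Chrne had 0.51 (adjusted p = 0.068) and the beta subunit gene Chrnb1 -0.03 (adjusted p = 0.961), and Runx1, which denervation raises, had 0.06 (adjusted p = 0.901).

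Dach2, a corepressor that denervation lowers in mouse muscle, was the member called lower. It was at 1.30, 5.70, 4.99 and 5.72 CPM in WT Sham and at 0.266, 0 and 1.10 CPM in KO Sham, and at 0.878, 1.95, 1.61 and 1.41 CPM in WT MTE against 0.271, 0.0986, 0.223 and 0.387 CPM in KO MTE. All KO libraries lay below the WT libraries of their surgery (log2 fold change -3.02, SE 0.56, edgeR adjusted p = 0.00674). With KO Sham column 3 and WT Sham 1 left out, the junction list had 9 higher and 1 lower, and its median was 0.52. With RLE size factors 3 members were higher. Schwann cell markers, from the cells that ensheathe the nerve, had 0 of 10 called and a median of -0.22, with summed levels of 92.0 to 109 CPM in WT Sham, 74.2 to 95.8 in KO Sham, 87.3 to 114 in WT MTE and 66.0 to 108 in KO MTE. The part of nerve cells in the junction result was not tested.

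**Figure D4:**
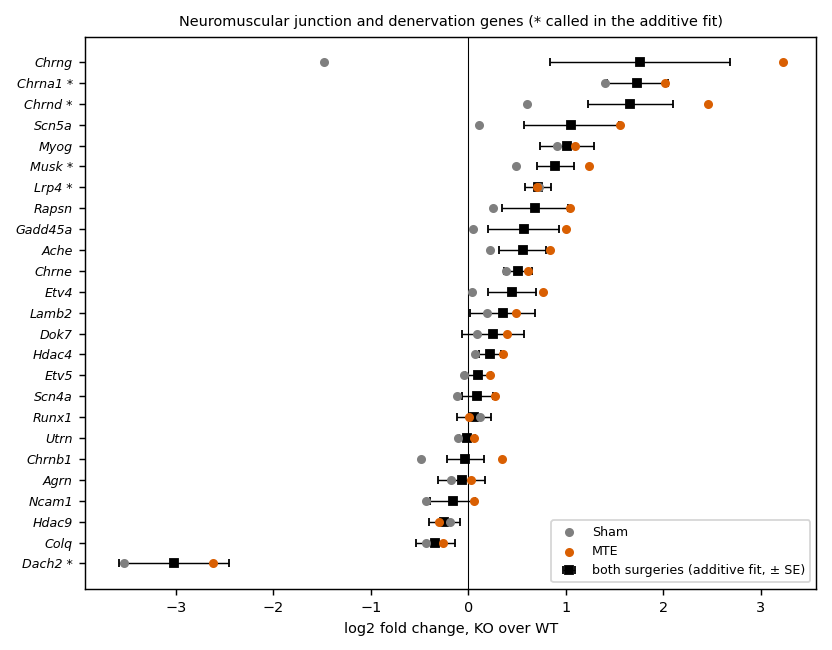
Log2 fold change of KO over WT (horizontal axis) for the 25 neuromuscular junction and denervation genes, with black squares for the additive fit ± SE and circles for Sham (grey) and MTE (orange) alone, asterisks marking called genes. The receptor genes Chrng and Chrnd lie far to the right in MTE (3.23 and 2.46), Lrp4 has nearly equal values in both surgeries and Dach2 lies at -3.02.

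Lists of muscle growth and breakdown held at most 1 call in each direction. Over all genes, 2.48% were called higher and 1.15% lower. Of 29 growth and mTORC1 genes, 0 were higher and 1 was lower (3.45%): Fst, which encodes follistatin, a protein that binds myostatin and activins. Fst was at 9.41, 12.5, 16.3 and 15.2 CPM in WT Sham and at 8.17, 6.27 and 11.2 CPM in KO Sham, and at 15.6, 13.5, 15.6 and 17.9 CPM in WT MTE against 7.24, 6.90, 8.79 and 9.68 CPM in KO MTE. The groups overlapped in Sham and not in MTE (log2 fold change -0.81, SE 0.15, edgeR adjusted p = 0.00605). The myostatin gene Mstn had -0.20 (adjusted p = 0.71) and Igf1 -0.30 (adjusted p = 0.44). Of 22 atrophy genes, 1 was higher and 1 lower (4.55% each). Trim55, a ubiquitin ligase of the sarcomere, was higher (log2 fold change 0.58, SE 0.10, edgeR adjusted p = 0.00453). Fbxo40, a muscle ubiquitin ligase subunit, was lower (-0.62, SE 0.14, adjusted p = 0.0221), a call lost without KO Sham column 2, WT MTE 1 or KO MTE 2, with an adjusted p of up to 0.0537. The ligase genes Trim63 (-0.65, adjusted p = 0.26) and Fbxo32 (0.01, adjusted p = 0.99) were not called. EdgeR called 0 of 37 proteasome subunits (median 0.06) and 0 of 30 autophagy and lysosome genes (median 0.03).

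Myogenic regulators and fusion genes showed 0 higher and 1 lower of 21 (4.76%, against 1.15% of all genes). The lower gene, Mymx, which encodes a myoblast fusion peptide, was at 0.343 to 0.855 CPM in WT MTE and at 0.0626 to 0.266 CPM in KO MTE, and at most 0.319 CPM in any Sham library. Its pooled log2 fold change was -2.12 (SE 0.54, edgeR adjusted p = 0.0402), and the call was kept without any 1 WT Sham library, KO Sham column 3 or WT MTE 4 and lost in 9 omissions, with an adjusted p of up to 0.0909. Its fusion partner Mymk, named after its value was seen, had -1.55 with an adjusted p of 0.179. Among developmental sarcomere genes, 1 was higher and 1 lower of 10 (10% each, against 2.48% and 1.15% of all genes). The lower was Myh3, given above, and the higher Nppb, the ventricular natriuretic peptide gene. Nppb had no count in the 7 Sham libraries and was at 0.0474 to 0.261 CPM in WT MTE and 0.386 to 2.35 CPM in KO MTE, so its call rests on the MTE libraries (edgeR adjusted p = 0.0292) and no fold is given for Sham. Its call was lost without WT MTE 2, WT MTE 3, WT MTE 4, KO MTE 2 or KO MTE 4, with an adjusted p of up to 0.0884.

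Metabolic lists held at most 2 calls in either direction. Of 80 oxidative phosphorylation subunits, 2 were higher (2.50%, near the 2.48% of all genes) and 0 lower. Their median was 0.18 in the pooled fit, 0.02 in Sham and 0.33 in MTE. The 2 higher were Ndufb5 of complex I (log2 fold change 0.40, edgeR adjusted p = 0.04) and Atp5h of the ATP synthase (0.36, adjusted p = 0.0448). Both calls were fragile, lost in 10 and 13 of the omissions of 1 library, with adjusted p of up to 0.0941 and 0.103. Of 35 genes for burning fatty acids and for the citrate cycle, 2 were higher (5.71%, against 2.48% of all genes) and 0 lower. Fh1, fumarate hydratase, was at 139, 183, 172 and 169 CPM in WT Sham against 203, 210 and 214 CPM in KO Sham, and at 101 to 113 CPM in WT MTE against 140 to 158 CPM in KO MTE. It was 1.32-fold higher without overlap within a surgery (log2 fold change 0.40, SE 0.08, adjusted p = 0.0076). Fabp3, a fatty acid binding protein of oxidative muscle, had 0.99 (SE 0.23, adjusted p = 0.0254), a call lost without KO Sham column 2, WT MTE 1, WT MTE 2, WT MTE 4, KO MTE 2 or KO MTE 4, with an adjusted p of up to 0.0581.

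In glycolysis and glycogen use, 0 of 26 were higher and 1 lower (3.85%, against 1.15% of all genes). This was Phka1, a regulatory subunit of phosphorylase kinase (log2 fold change -0.77, SE 0.17, edgeR adjusted p = 0.017). Polr1a, the largest subunit of RNA polymerase I, was the 1 of 30 ribosome biogenesis genes called higher (3.33%, against 2.48% of all genes), with 0 lower. Its log2 fold change was 0.47 (SE 0.10, edgeR adjusted p = 0.0125). Chac1, which degrades glutathione, was the 1 of 19 amino acid and ATF4 response genes called lower (5.26%, against 1.15% of all genes), with 0 higher. Its log2 fold change was -1.70 (SE 0.30, edgeR adjusted p = 0.00448). It stood at 10.1, 12.3, 31.1 and 28.1 CPM in WT Sham against 3.81, 4.43 and 3.86 CPM in KO Sham, and at 1.56 to 3.42 CPM in WT MTE against 0.898 to 1.5 CPM in KO MTE. Nmrk2, a muscle kinase of the NAD precursor nicotinamide riboside, lay in the run of calls on chromosome 10 and had 2.14 (SE 0.50, adjusted p = 0.0276). Its values overlapped in both surgeries, and the call was lost in 8 of the omissions of 1 library, with an adjusted p of up to 0.0645. Lists with 0 calls in either direction were p53 targets (17 tested, median 0.05) and heat shock and unfolded protein genes (20 tested, median 0.16).

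Markers of other cell types gave at most 1 call per list, where 3.63% of all genes were called, while some summed levels differed between genotypes. Macrophage markers had 0 of 22 called, with a median log2 fold change of -1.16 that became -0.31 without WT Sham 1 and KO Sham column 3. Their summed level was 344 to 4074 CPM in WT Sham, 177 to 386 in KO Sham, 1570 to 2103 in WT MTE and 1124 to 1320 in KO MTE, so KO MTE lay below WT MTE in every library. Interferon-stimulated genes had 0 of 30 called and a median of -0.43, which became 0.02 without those libraries. Endothelial markers had 0 higher and 1 lower of 12, the adhesion molecule gene Pecam1 (-0.32, edgeR adjusted p = 0.0475), and fibro-adipogenic progenitor markers 0 higher and 1 lower of 13, the growth factor receptor gene Pdgfra (-0.40, adjusted p = 0.0415). Both calls were lost in most omissions of 1 library, 12 and 11 of 15, with adjusted p of up to 0.113 and 0.0976. Extracellular matrix genes had 0 of 34 called (median -0.34) and cell cycle genes 0 of 26 (median -0.47). Their summed levels overlapped between genotypes in Sham. Matrix genes summed to 23434 to 50508 CPM in WT MTE and 24802 to 32185 in KO MTE, and cell cycle genes to 314 to 457 and 267 to 337.

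The 12 endothelial markers summed to 441 to 486 CPM in KO Sham, below 499 to 537 CPM in WT Sham, and overlapped in MTE. The remaining marker lists had 0 calls in either direction. They were other leukocytes (7 tested, median -1.05), smooth muscle and pericytes (11 tested, -0.25), tendon (9 tested, -0.09), adipocytes (9 tested, -0.30), erythroid genes (6 tested, -0.69) and mitochondrially encoded genes (13 tested, 0.18). The summed levels of other leukocyte markers were 57.1 to 64.8 CPM in KO MTE, below 105 to 264 CPM in WT MTE, and those of tendon markers 2072 to 2688 CPM, below 2894 to 4318 CPM. Both overlapped in Sham. Smooth muscle and pericyte markers went the other way in MTE, with summed levels of 4172 to 5310 CPM in KO and 3095 to 4365 CPM in WT. Their ranges overlapped in both surgeries. No list of other cells had a marker at 0 in every library. Of 29 germline genes 12 were tested, of which 1 was higher (8.33%, against 2.48% of all genes) and 0 lower. The list's median log2 fold change was -0.06. The higher gene was Rec8, a cohesin subunit of meiosis, with a log2 fold change of 1.87 (SE 0.48, edgeR adjusted p = 0.0436). Rec8 was at 1.81 to 3.55 CPM in KO MTE against 0.0381 to 1.28 CPM in WT MTE. Its Sham values did not exceed 0.481 CPM, and its call was kept only without WT Sham 1, KO Sham column 3, WT MTE 2 or WT MTE 4, with an adjusted p of up to 0.11 otherwise. The part of other cell types in the genotype effect was not tested.

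**Figure D5:**
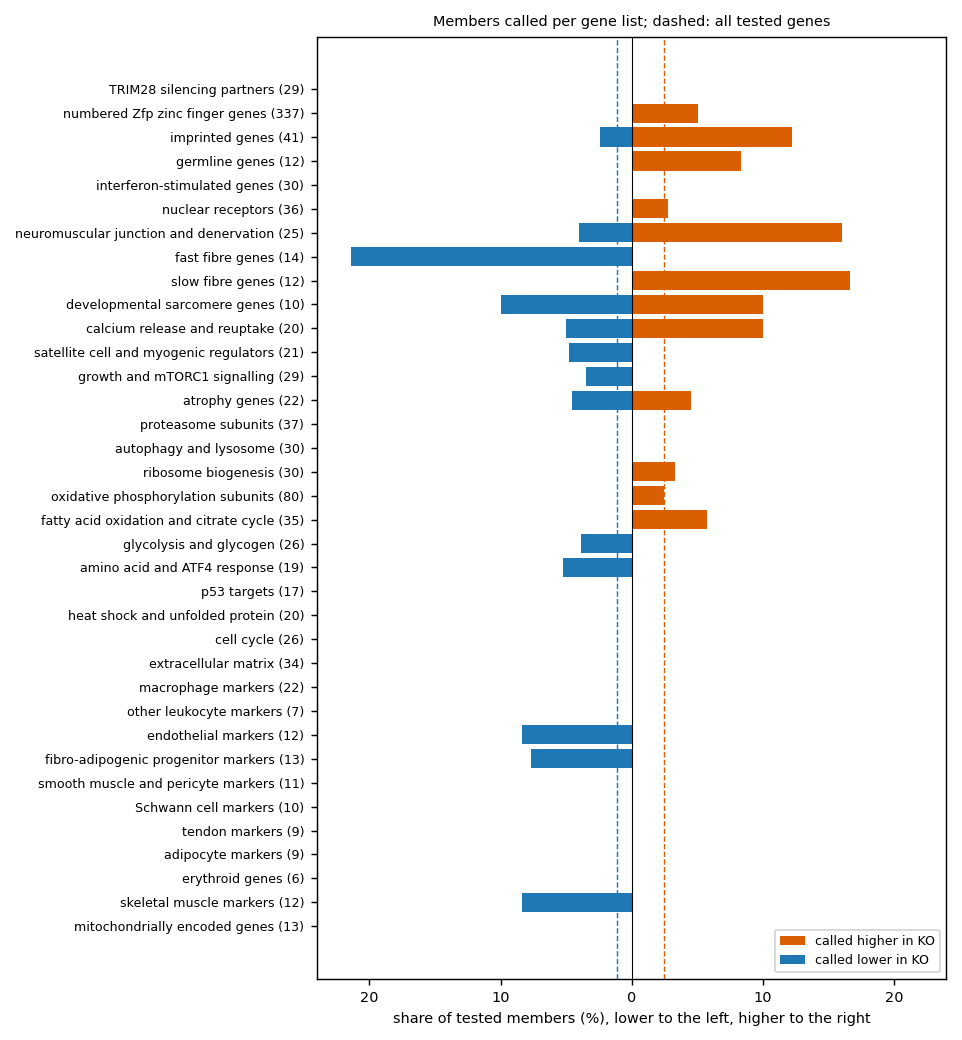
Share of tested members (horizontal axis, %) called higher in KO (orange, to the right) or lower (blue, to the left) for each of 36 gene lists, with the number tested in brackets and dashed lines at 2.48% and 1.15%, the shares over all genes. Fast fibre genes have the longest bar to the left (21.4%) and slow fibre and junction genes the longest to the right (16.7% and 16%), each resting on 4 genes or fewer.

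By annotated type, calls were most frequent among long noncoding genes. Of 436 long intergenic noncoding genes, 27 were higher (6.19%) and 12 lower (2.75%). Of 14242 protein-coding genes, 368 were higher (2.58%) and 164 lower (1.15%), and of 329 antisense genes 10 were higher and 10 lower (3.04% each). Their median levels differed, at -0.38, 3.54 and -0.53 log2 CPM. With genes divided into 4 equal sets by mean level, the share called higher was 1.86%, 1.67%, 2.72% and 3.65% from the lowest to the highest, and the share called lower 0.744%, 1.09%, 1.07% and 1.70%. Other types of low level had fewer calls, 9 higher (0.777%) and 2 lower (0.173%) of 1158 genes annotated as to be experimentally checked (median 0.07 log2 CPM), and 1 higher (0.288%) and 6 lower (1.73%) of 347 processed pseudogenes (-0.75). Over chromosomes, the share called higher ran from 1.87% on chromosome 15 to 3.14% on chromosome 13, and the share called lower from 0.555% on chromosome 2 to 3.002% on chromosome X, where Fhl1, Dmd, Dach2 and Phka1 lie.

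Promoter sequence was examined for genes with an entry in the RefSeq table, 317 called higher and 135 called lower among 11674 tested. Promoters of genes called lower held fewer CpG dinucleotides, a median of 10 against 20 over all tested genes and 18 for those called higher, and their median GC content was 55.3% against 60.3% and 60%. The hexamer TGCCGC, searched on both strands, occurred in 18.3% of tested promoters, 21.8% of those called higher and 15.6% of those called lower. The myogenic E-box CAGCTG, which reads the same on both strands, occurred in 15.5%, 15.1% and 21.5%. An estrogen response element, taken as GGTCA and TGACC with 3 free bases between them, occurred in 1 tested promoter, of a gene that was not called. These motifs were chosen with results known and a match is not a bound site.

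The authors' deposited table gives a genotype p-value from a 2-way analysis of variance for 17217 genes, of which 2702 are under 0.05 there. For the 620 called genes that have such a value, 619 are under 0.05 in the authors' deposited table. The p-values there are unadjusted and rest on the same libraries. Its interaction p-values are under 0.05 for 68 of these genes.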

How the data were processed

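RNA of plantaris muscle was sequenced from total RNA after ribosomal depletion with a stranded kit, per the labels' protocols. The authors deposited estimated counts (expected counts) per Ensembl gene, 17230 genes in 15 library columns. The build was GRCm38 and STAR, RSEM and edgeR were used, per the submitters' processing notes, which name no versions. Of the values, 90.9% lay within 0.01 of a whole number. The authors also deposited p-values for genotype, surgery and their interaction (2-way ANOVA per the file headers).

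The labels describe 16 samples. The tables held 3 KO Sham columns for 4 labelled samples, so these are called columns 1 to 3 and were matched to the group but not to single samples. Chi-square per gene was at least 36.5 between libraries of a group, so each counted as 1 replicate.

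Counts were rounded to whole numbers, filtered with filterByExpr by group and scaled by TMM, and genotype plus surgery was fitted in R 4.3.3 with the robust quasi-likelihood model of edgeR 4.0.16 on 12 residual degrees of freedom. Within-surgery and interaction contrasts came from a fit of 4 group means. P-values were adjusted over 17212 genes with the Benjamini-Hochberg method, and SE was derived from the log2 fold change and F. Scripts were tested on simulated data. Positions are from GENCODE M21 on GRCm38, in which 15 genes had no symbol. Promoters are from RefSeq (GRCm38.p6), the first listed per gene, 300 bases each, aligned in pairs with biopython 1.88. The depth of 21.1 M to 69.2 M counts per library limits precision mainly for genes under 1 CPM.

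Genes named were Trim28; the 15 higher and 15 lower called genes of largest absolute log2 fold change with a symbol, an average log2 CPM over 0 and full separation in both surgeries; the 10 of smallest p in each direction; up to 4 called members per list and all in lists with 5 or fewer calls; and genes in runs, of which a selection is printed. The members, lists, motifs and rules were chosen with earlier results of these data known. Alternatives were RLE factors, other filters, DESeq2 1.42.0, limma voom 3.58.1 with and without sample weights, an average contrast, single surgeries, a replicate block, single omissions, and omission of 2 libraries that an earlier account found apart. A planned count of zinc fingers per protein was not made, because protein sequences were not used here.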

Additional observations from a re-analysis of the deposited data

Results flagged for a closer look

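In the genes printed above, 278 gene groups of 4 libraries were examined for a library set apart from the other 3 of its group, and 19 were found by Dixon's test at the 95% level. Chance alone sets apart about 1 in 20 such groups. WT Sham 1 was that library in 7 of the 19.

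WT Sham 1 was high for Kcng4 at 10.9 CPM (others 5.66 to 6.35), Chrna1 at 55.0 (20.96 to 25.7), Sln at 43.3 (4.82 to 9.57) and Chrng at 1.30 (0.293 to 0.352). It was low for Suds3 at 44.1 CPM (49.3 to 50.2), Dach2 at 1.30 (4.99 to 5.72) and Pecam1 at 112 (124 to 125). In Kcng4, Chrna1, Sln, Dach2 and Pecam1 it lay on the KO side of its group, in Suds3 on the other side, and in Chrng away from KO Sham. The same library held the raised macrophage markers, and the part of those cells in these values was not tested. WT Sham 2 was low for Gm39469 at 1.45 CPM (1.80 to 1.85) and high for Pak1 at 79.4 (49.1 to 54.0) and Myh4 at 36281 (32413 to 32926). WT Sham 4 was high for Lrp4 at 25.5 CPM (18.6 to 19.7).

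After overload, KO MTE 4 was high for Chrng at 64.8 CPM (4.01 to 13.6) and Myog at 86.8 (23.6 to 34.2), and KO MTE 1 for Myh4 at 10062 (5644 to 5928). WT MTE 2 was high for Esr1 at 37.9 CPM (27.0 to 27.6) and Peg10 at 10.1 (6.57 to 6.89). WT MTE 4 was low for Acox2 at 0.190 CPM (0.570 to 0.616) and high for Gm47898 at 2.40 (1.64 to 1.71) and 9430073C21Rik at 9.13 (5.14 to 5.63). All of these genes that were called, except Sln and Pecam1, kept their call in each omission of 1 library.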

How the results depend on the processing

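Against 426 higher and 198 lower genes in the pooled fit, the counts were 751 and 490 with DESeq2, 992 and 902 with limma voom and sample quality weights, and 4 and 2 with the Sham libraries only. Leaving out WT Sham 1 together with KO Sham column 3 gave 784 and 491. DESeq2 held all 426 and 197 of the 198. The counts were within 1.5 times with RLE factors (431 and 181), no filter (424 and 197), at least 1 CPM in at least 7 libraries (359 and 192), limma voom (479 and 252), the average contrast (407 and 173) and the MTE libraries only (395 and 180, of which 246 and 60 were also called in the pooled fit). With 1 library left out they ran from 261 to 540 and from 111 to 310. Within Sham, 57 and 31 became 102 and 134 without the 2 libraries and 4 and 2 in a fit of Sham alone. Within MTE, 209 and 44 became 553 and 280 without them and 395 and 180 in a fit of MTE alone. The interaction had 0 calls, and 1 lower gene without them, Gusb (log2 -1.94, edgeR adjusted p = 0.0061). The causes were not tested.

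The replicate block, on the 12 numbered libraries and so without KO Sham, gave 288 higher and 76 lower genes. The same 12 libraries with no replicate block, a fit chosen after seeing the data, gave 237 and 55. Same-numbered libraries had deviations correlated at -0.111 to 0.458 over 12 pairs, not all above 0.1, so the numbers were not taken to pair them. Libraries of different numbers and groups had correlations of -0.500 to 0.389. This rule does not show that same-numbered libraries share nothing, and the pooled fit holds no term for the number.

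Of 119 named called genes, 81 kept their call in every single omission, 117 in both DESeq2 and limma voom, and 116 without the 2 libraries. None of these 119 genes changed sign under the alternatives run. Oas1e, whose within-surgery effects differed in sign, was called but was not among the 119. Of the 12 uncalled genes checked in the same way, Chrnb1, Ncam1, Runx1 and Chrng changed sign under at least 1 alternative. Chrnb1 went from -0.03 to 0.15 and Ncam1 from -0.16 to 0.09 without the 2 libraries. Runx1 went from 0.06 to as low as -0.04 in single omissions, and Chrng from 1.76 to -1.48 with Sham alone. Depth limits genes under 1 CPM, such as Chrna9, Acox2, Rec8, Mymx and Nppb, most.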
